A study of Mus musculus with 10 samples.

Results

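The genes of the constitutive proteasome were followed in leukemic mouse spleens in which Sirt1 had or had not been deleted. They were taken as all symbols of the families Psma to Psmg in the deposited table, leaving out the immunoproteasome subunits Psmb8, Psmb9 and Psmb10. Of 47 such symbols among 16865, 46 had a normalized count of 10 or more in at least 5 of the 10 libraries, as did 13567 genes in all. Psma8, the testis form of an α subunit, was below that level, with group means of 7.7 in Sirt1 deleted and 9.0 in Control spleens. The 46 genes comprise 15 of the core particle, 17 of the regulatory particle, 13 associated factors (activators, an inhibitor and assembly chaperones) and Psmc3ip. The last shares only the symbol: it encodes a meiotic recombination factor and is counted apart.

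The proteasome degrades proteins that carry ubiquitin chains. Its barrel-shaped core particle has outer rings of α subunits, which gate the entry, and inner rings of β subunits, 3 of which (Psmb5, Psmb6 and Psmb7) carry the proteolytic sites. The regulatory particle caps the core: its base holds a ring of ATPases that unfold substrates and receptors that bind ubiquitin, and its lid holds the deubiquitinase Psmd14. In lymphoid cells much of the core carries the interferon-inducible subunits Psmb8, Psmb9 and Psmb10 in place of the constitutive catalytic ones.

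The Sirt1 deleted group held 5 libraries of spleen from C57BL/6 mice that had been injected intraperitoneally with 3 mg of tamoxifen in corn oil, and the Control group held 5 from mice given corn oil only. All 10 mice had been irradiated at a sub-lethal dose and carried an intravenously transplanted T cell acute lymphoblastic leukemia with a conditional Sirt1 allele. Tamoxifen and deletion therefore came together and cannot be told apart. The recombinase, the cells that express it, and which leukemia each mouse carried are not given in the sources used here, and host spleen cells remain in the samples. Whole spleen suspensions were measured in bulk after red cell lysis, so fewer cells of a type and less RNA per cell cannot be told apart. Nothing in the labels says that each library came from a separate leukemia, and p-values here speak only of the scatter among these libraries, which may be technical in part.

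Estimated depths were 21.2 to 44.3 M reads per library (M, 1e+06), and the deposited totals were 33.6 to 34.8 M normalized counts. At this depth Psmb5 rested on an estimated 2981 to 6407 reads per library, a counting error of at most 1.83%, which covers counting only. Sirt1, the targeted NAD-dependent deacetylase gene, had 922, 824, 1071, 1061 and 709.6 normalized counts in Sirt1 deleted libraries, against 1324, 1348, 1174, 1192 and 1126 in Control libraries. The groups did not overlap (log2 difference −0.44 ± 0.11 SE, limma adjusted p = 0.0125, two-sided exact permutation p = 0.00794, the smallest that 252 splits can give). The mean in Sirt1 deleted spleens was 74.4% of the Control mean. With the length and GC correction described further on, the Sirt1 difference was −0.25 on the longest coding transcript (limma adjusted p = 0.029). On the median coding transcript it was −0.23 (limma adjusted p = 0.027). Which part of Sirt1 is deleted is not given in the sources used here, and the values count the whole gene, which an exon of Gm16145 overlaps on the opposite strand. Markers of T cells and thymocytes summed to 204395 to 239789 in Sirt1 deleted and 202169 to 222070 in Control libraries, and all 11 were above the level used for testing. Of these 11, limma called Ptcra and Cd3g higher and Rag1 lower in Sirt1 deleted spleens, with log2 differences from −0.66 to 0.36. Some markers of other spleen cells were also called, by a test (described with the core particle) that called 14.5% of all genes higher and 17.5% lower. Macrophage markers summed to 6324 to 10183 in Sirt1 deleted and 10959 to 15885 in Control libraries (6 of 11 called lower). B cell markers summed to 311 to 501 in Sirt1 deleted and 251 to 338 in Control libraries (3 of 9 tested called higher). Neutrophil markers summed to 2212 to 9581 in Sirt1 deleted and 1687 to 4758 in Control libraries (2 of 11 tested called higher). Erythroid markers summed to 205512 to 466753 in Sirt1 deleted and 421223 to 535530 in Control libraries (3 of 10 called lower). After the length and GC correction described further on, 7 of 11 macrophage and 6 of 10 erythroid markers were called lower and 2 of 9 B cell markers higher, while no neutrophil marker was called by limma (2 of 11 were before it). None of these markers was at 0 in all libraries, and their part in the results on proteasome genes was not tested beyond the fit with B cell markers given further on.

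The promoter stretches of 5 genes are shown because the reported differences include rises and falls among genes of 1 complex, and each carries a motif that is well known from proteasome or housekeeping promoters. In the deposited values, Psmb5, Psmb6 and Psmb3 were higher and Psmd11 and Psmd2 were lower in Sirt1 deleted spleens. The longest coding transcripts have 899, 798 and 766 bases for Psmb5, Psmb6 and Psmb3, and 2848 and 2961 for Psmd11 and Psmd2. With the length and GC correction described further on, limma called none of the 5. On the median coding transcript it called only Psmd11, lower (−0.26). Whether the motifs bear on these differences was not tested. Each line gives 100 bases ahead of the gene, 5′ to 3′ on the gene's own strand, from RefSeq (GRCm38.p6), ending before the more upstream of the RefSeq and GENCODE starts. Capitals mark TGACNNNGC (the antioxidant response element, bound by NRF1 and NRF2) in Psmb5 and Psmb6, CCAAT in Psmb3, and the ETS motif CCGGAAG, on the opposite strand, in Psmd11 and Psmd2.
Psmb5, chr14:54618023-54618122, minus strand: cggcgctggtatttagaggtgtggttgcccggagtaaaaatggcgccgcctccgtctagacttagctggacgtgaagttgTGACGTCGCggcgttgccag
Psmb6, chr11:70525257-70525356, plus strand: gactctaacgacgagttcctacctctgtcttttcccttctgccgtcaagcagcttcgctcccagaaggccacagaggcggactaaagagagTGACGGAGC
Psmb3, chr11:97703299-97703398, plus strand: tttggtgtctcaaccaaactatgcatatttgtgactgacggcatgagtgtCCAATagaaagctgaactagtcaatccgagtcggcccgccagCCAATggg
Psmd11, chr11:80428515-80428614, plus strand: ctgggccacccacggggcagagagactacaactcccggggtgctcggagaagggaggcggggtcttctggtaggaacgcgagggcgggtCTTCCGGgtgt
Psmd2, chr16:20651552-20651651, plus strand: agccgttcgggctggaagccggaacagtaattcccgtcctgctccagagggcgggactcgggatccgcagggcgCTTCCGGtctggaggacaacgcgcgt

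Motifs were counted on both strands in the 250 bases before the RefSeq start of 39 of the 46 genes, beside 32851 promoters of the same length. CCGGAAG was found in 1 of 12 core genes (Psma6), 8 of 14 regulatory genes (Psmc1, Psmc2, Psmc6, Psmd2, Psmd4, Psmd6, Psmd11 and Psmd12), 3 of 12 associated genes and 6.91% of all promoters. CCAAT was found in 7 of 12 core genes, 4 of 14 regulatory genes, 2 of 12 associated genes and 33.8% of all promoters. TGACNNNGC was found in 5 of the 39 (Psmb5, Psmb6, Psmc6, Psmd9 and Psmd12) and 10.2% of all promoters. The E-box CACGTG was found in 3 of the 39 and in 6.02% of all promoters. The motifs do not overlap one another in the stretches printed. These are matches of letters, not binding sites. A gene was counted if any RefSeq promoter of it matched, whereas the shares are per promoter and not limited to tested genes. The 2 are therefore not like for like, and enrichment was not tested. In the deposited values both directions of difference occur among genes with CCGGAAG, since Psmd4 was higher and Psmd2 and Psmd11 were lower in Sirt1 deleted spleens.

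In the core particle, 10 of 15 genes were higher in Sirt1 deleted spleens, none was lower, and 5 did not pass the test (limma, Benjamini-Hochberg adjusted p below 0.05 over all 13567 genes). At an unadjusted p below 0.05, 1 core gene was lower (Psmb11). By the same test 14.5% of all genes were called higher and 17.5% lower, 32% in all. The log2 differences of the 15 genes had a median of 0.24 and ranged from −0.37 to 0.36, while the median over all genes was 0.00. The shifts were small, with mean values in Sirt1 deleted spleens at 106% to 129% of Control in the 14 broadly expressed core genes. The groups did not overlap for 4 higher genes (Psmb1, Psmb2, Psmb4 and Psmb5) and 1 lower gene (Psmb11), against 8.28% (higher) and 8.18% (lower) of all genes. The count of core genes called was 1 without Control 1, 2 without Control 2, and 6 without Control 4 or without Sirt1 deleted 2. Under these 4 omissions the share of all genes called was 17.2%, 16.2%, 23.2% and 20%, in the same order. Of the 15 core genes, 11 fall in the shortest of 5 classes of transcript length, described further on. In that class 44.7% of all genes were called higher, as were 7 of the 11. With the length and GC correction, also described there, limma called 3 of the 15 higher, beside 8.49% of all genes. The corrected core median was 0.02.

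Among the catalytic subunits, Psmb5, which cleaves after hydrophobic residues, had 5027, 5412, 4821, 4786 and 6285 normalized counts in Sirt1 deleted libraries, against 4079, 4108, 4653, 4272 and 4545 in Control libraries. Every Sirt1 deleted value lay above every Control value, and the highest was in Sirt1 deleted 5 (log2 difference 0.28 ± 0.08 SE, limma adjusted p = 0.0176). The gene lies at chr14:54614119-54618022 (GRCm38), and the microRNA gene Mir686 overlaps its exons on the same strand, so reads of the pair could be shared. Psmb6, which cleaves after acidic residues, had 5679, 6531, 5382, 5619.8 and 7794 normalized counts in Sirt1 deleted libraries, against 4687, 4817, 5384, 4849 and 5324 in Control libraries. The groups overlapped only in that Sirt1 deleted 3 lay just below Control 3 (log2 difference 0.30 ± 0.09 SE, limma adjusted p = 0.0282). Psmb7, which cleaves after basic residues, had 5858, 6297, 6196, 6308 and 7133 normalized counts in Sirt1 deleted libraries, against 5316, 5500.4, 6029, 5602 and 6086 in Control libraries. It did not pass the test (log2 difference 0.15 ± 0.06 SE, limma adjusted p = 0.067), and its groups overlapped by Sirt1 deleted 1 lying below 2 Control libraries. Psmb7 was called without Control 5 (limma adjusted p = 0.047) or without Sirt1 deleted 1 (0.039). Psmb5 was not called without Control 1 or without Control 2 (limma adjusted p = 0.051 each). Psmb6 was not called without Control 1 (0.073), Control 2 (0.069), Control 4 (0.060) or Sirt1 deleted 2 (0.069), all limma adjusted p-values. With the length and GC correction described further on, the log2 differences were −0.056 for Psmb5, −0.050 for Psmb6 and −0.028 for Psmb7, none called by limma. On the median coding transcript they were −0.041, 0.049 and 0.064, in the same order, again with none called.

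Psmb3, a structural β subunit, showed the largest difference in the core particle. It had 5832, 6828, 6271, 6192 and 8791 normalized counts in Sirt1 deleted libraries, against 4663, 4830.4, 5864, 5169 and 5710.3 in Control libraries (log2 difference 0.36 ± 0.10 SE, limma adjusted p = 0.0212). Sirt1 deleted 5 stood highest, and Sirt1 deleted 1 lay just below Control 3. It was not called without Control 1 (limma adjusted p = 0.060) or without Control 2 (0.059). With the length and GC correction Psmb3 stood at 0.03 on the longest coding transcript (limma adjusted p = 0.70). On the median coding transcript it stood at 0.15 (limma adjusted p = 0.090). The other β subunits called higher were Psmb1 (0.26), Psmb2 (0.26) and Psmb4 (0.24), all log2 differences. In the β ring 6 of 8 genes were higher, beside 14.5% of all genes, with a median log2 difference of 0.26. After the length and GC correction described further on, limma called 1 of the 8 higher, beside 8.49% of all genes. The corrected median was −0.02. Psmb11, the thymus-specific catalytic subunit that takes the place of Psmb5 in thymic cortical epithelium, was scarce. It is the only core gene whose difference was negative in the deposited values. It had 26.8, 30.6, 25.9, 26.2 and 20.5 normalized counts in Sirt1 deleted libraries, against 33.2, 32.7, 34.6, 33.9 and 33.6 in Control libraries. The groups did not overlap, but the test was not passed (log2 difference −0.37 ± 0.16 SE, limma adjusted p = 0.090).

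In the α ring 4 of 7 genes were higher, beside 14.5% of all genes, with a median log2 difference of 0.19. The groups overlapped for all 7. Psma4 (0.27), Psma7 (0.27), Psma2 (0.20) and Psma3 (0.19) were called, and Psma1 (0.17, limma adjusted p = 0.052), Psma5 (0.14) and Psma6 (0.09) were not. After the length and GC correction, limma called 2 of the 7 higher, beside 8.49% of all genes, and the median was 0.06. Group means of the 7 ran from 5979 to 9203 normalized counts in Sirt1 deleted and from 5316 to 7958 in Control spleens. Exons of other genes overlap Psma4, Psma5, Psmb7, Psmc3, Psmd3, Psmd9 and Psmd13 on the opposite strand and Psmd1 and Psmg3 on the same strand, so part of their reads is uncertain. Per kilobase of the longest coding transcript, the median level of the core genes was 5831 normalized counts in Sirt1 deleted and 4920 in Control spleens, and that of the regulatory genes was 3213 in Sirt1 deleted and 3016 in Control spleens.

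**Figure D1:**
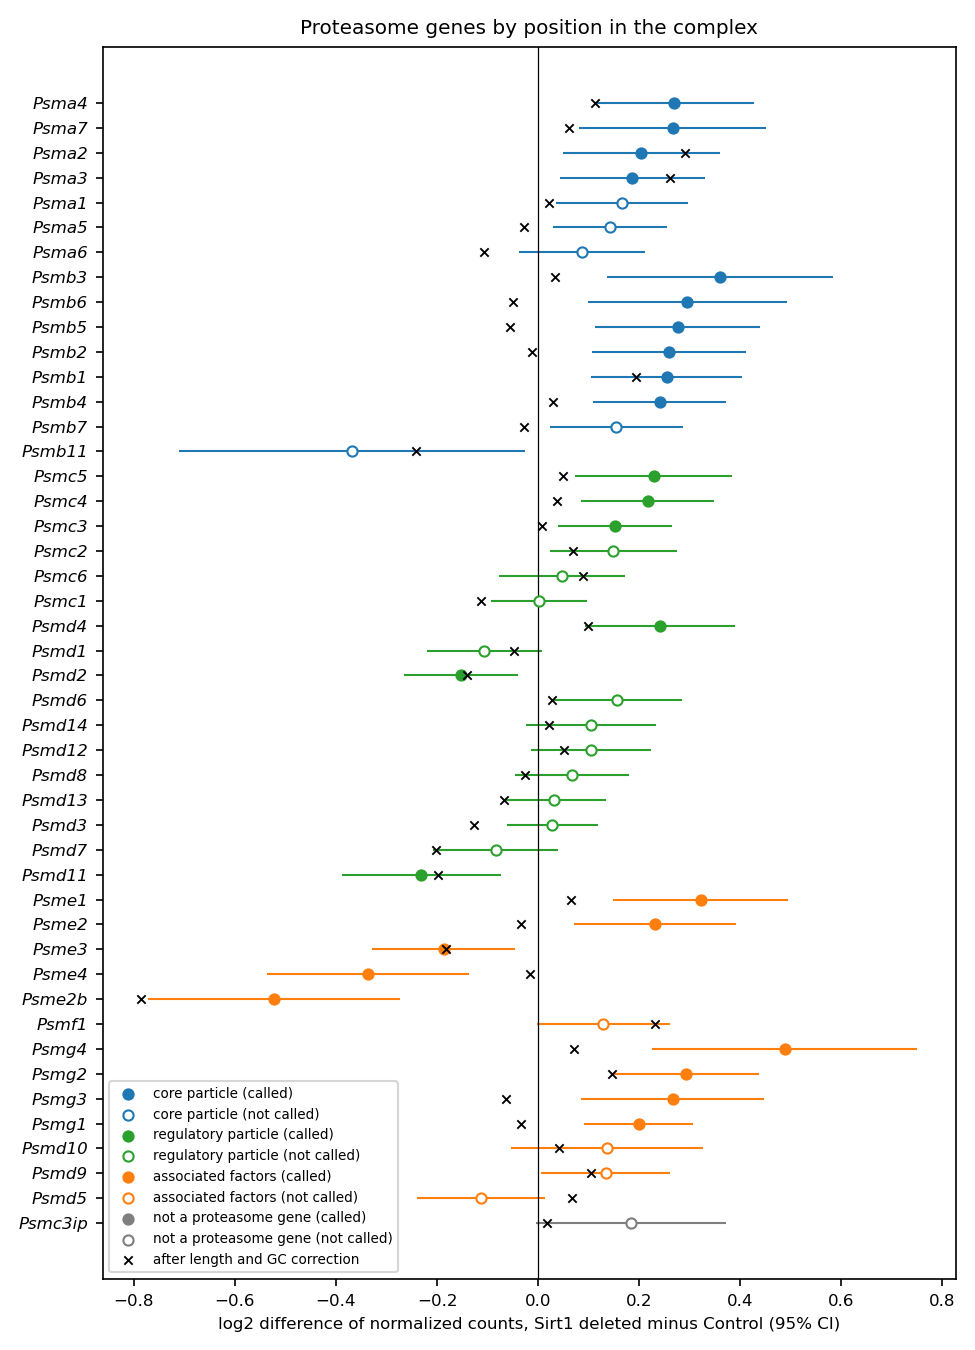
Log2 difference (Sirt1 deleted minus Control) of each of the 46 genes, ordered by place in the complex, with its 95% confidence interval from limma (n = 5 libraries per group); filled points passed the test and crosses give the difference after the length and GC correction. The core genes lie mostly to the right of 0, the regulatory genes spread from −0.23 to 0.24, and the corrected core median is 0.02.

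Genes of the regulatory particle were called in both directions, at shares not far from those of all genes. Of the 17 genes, 4 were higher (Psmc3, Psmc4, Psmc5 and Psmd4), 2 were lower (Psmd2 and Psmd11) and 11 did not pass the test. The log2 differences had a median of 0.07 and ranged from −0.23 to 0.24. The groups did not overlap for 2 higher genes (Psmc4 and Psmd4) and 1 lower gene (Psmd11), beside 8.28% (higher) and 8.18% (lower) of all genes. The share called higher, 4 of 17, stood beside 14.5% of all genes, and the share called lower, 2 of 17, beside 17.5%. With quantile normalization 7 regulatory genes were called higher and none lower by limma, beside 17.3% (higher) and 15.4% (lower) of all genes, and Psmd11 (−0.17) and Psmd2 (−0.09) were not called. No regulatory gene was called by limma without Control 1 or without Control 2 (7 of 17 at an unadjusted p below 0.05 each time), 2 were called without Control 4 and 1 without Sirt1 deleted 2.

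Among the 6 ATPases of the base, which thread substrates into the core, Psmc3 (0.15), Psmc4 and Psmc5 were called. Psmc5 had 5397, 5814, 5917, 5222 and 6804 normalized counts in Sirt1 deleted libraries, against 4559, 4863, 5354, 4836 and 5199 in Control libraries (log2 difference 0.23 ± 0.07 SE, limma adjusted p = 0.0304). Only Sirt1 deleted 4 lay within the Control range. Psmc4 had 6977, 7454, 6910.4, 6782 and 8297 normalized counts in Sirt1 deleted libraries, against 6098, 6002, 6546, 6055 and 6577 in Control libraries, with no overlap (log2 difference 0.22 ± 0.06 SE, limma adjusted p = 0.0199). Psmc2 (0.15), Psmc6 (0.05) and Psmc1 (0.00) were not called. Neither Psmc4 nor Psmc5 was called without Control 1, without Control 2 or without Sirt1 deleted 2 (limma adjusted p from 0.052 to 0.083), and Psmc5 was not called without Control 4 (0.064). With the length and GC correction described further on, Psmc3 (0.01), Psmc4 (0.04) and Psmc5 (0.05) were not called by limma. Nor were they on the median coding transcript (0.05, 0.08 and 0.14, in the same order).

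The base also holds ubiquitin receptors, and those differed in opposite directions in the deposited values. Psmd4, a receptor for ubiquitin chains, had 5592, 6007, 5810.3, 5659.8 and 7094 normalized counts in Sirt1 deleted libraries, against 4812, 4882, 5444, 4938 and 5372 in Control libraries. It was higher without overlap, with Sirt1 deleted 5 standing apart above the others (log2 difference 0.24 ± 0.07 SE, limma adjusted p = 0.0208). Psmd2, the large scaffold that binds ubiquitin and shuttle proteins, had 10146, 9967, 10390.2, 10769 and 9619 normalized counts in Sirt1 deleted libraries, against 11442, 11581, 12098, 11025 and 10461 in Control libraries. It was lower, with Control 5 inside the Sirt1 deleted range (log2 difference −0.15 ± 0.05 SE, limma adjusted p = 0.0409). Psmd1, the other large scaffold of the base, was not called (−0.11). Psmd4 was not called without Control 1 (limma adjusted p = 0.059) or Control 2 (0.057). Psmd2 lost its call without any 1 of Control 1 to 4 or Sirt1 deleted 1, 2 or 5 (limma adjusted p from 0.057 to 0.096). After the length and GC correction described further on, neither was called (Psmd4 at 0.10, limma adjusted p = 0.097, and Psmd2 at −0.14, limma adjusted p = 0.054). Nor was either called with that correction on the median coding transcript (Psmd4 at 0.10 and Psmd2 at −0.07).

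In the lid, 0 of 8 genes were called higher and 1 lower by limma (at an unadjusted p below 0.05, 1 was higher and 1 lower), counts too small to be told from the 14.5% and 17.5% of all genes. Psmd11, a scaffold subunit of the lid, known in human embryonic stem cells for raising proteasome assembly, had 3193, 2871, 3265, 3123 and 2461 normalized counts in Sirt1 deleted libraries, against 3433, 3550.1, 3599, 3544 and 3296 in Control libraries. All Sirt1 deleted values lay below all Control values (log2 difference −0.23 ± 0.07 SE, limma adjusted p = 0.0304). It was not called without any 1 of Control 1, 2, 3 or 4 or Sirt1 deleted 2 (limma adjusted p from 0.062 to 0.072). With the length and GC correction Psmd11 stood at −0.20 on the longest coding transcript (limma adjusted p = 0.053). On the median coding transcript it stood at −0.26 (limma adjusted p = 0.036). Psmd14, the deubiquitinase that removes ubiquitin chains from substrates, had 4880.0, 5118, 5857, 5366 and 5552 normalized counts in Sirt1 deleted libraries, against 4673, 4763, 4969, 5147 and 5337 in Control libraries. The groups overlapped and the test was not passed (log2 difference 0.10 ± 0.06 SE, limma adjusted p = 0.19). The other lid genes had log2 differences from −0.08 (Psmd7) to 0.16 (Psmd6).

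**Figure D2:**
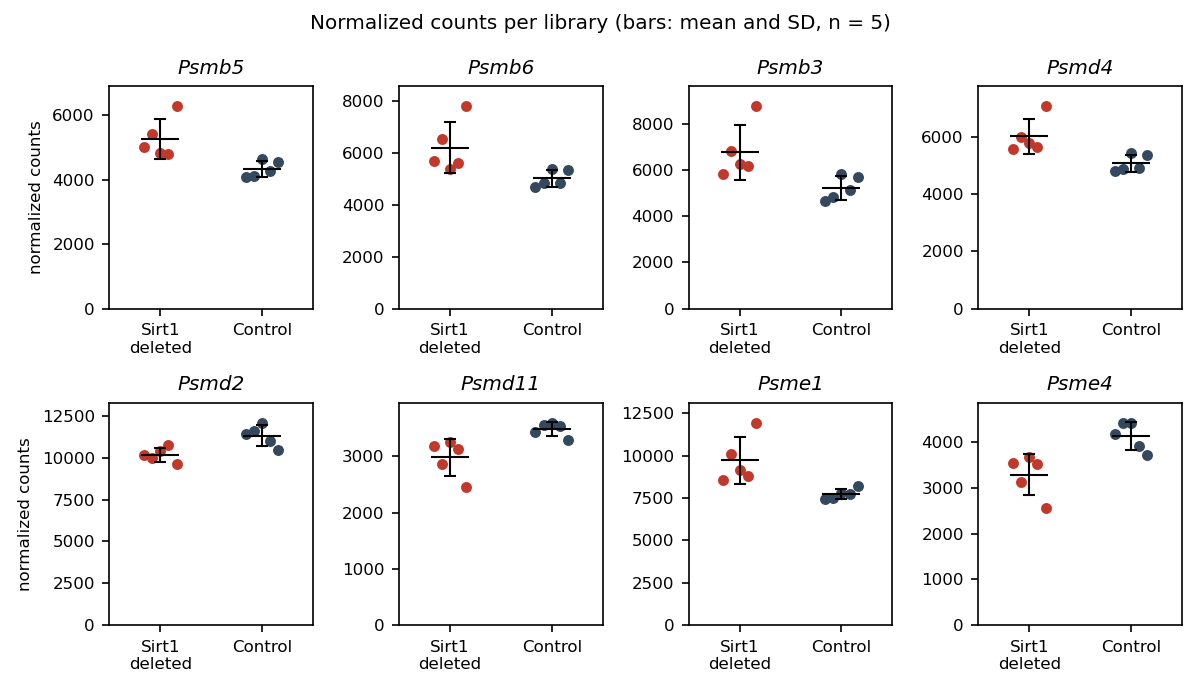
Normalized counts (axes start at 0) of 8 proteasome genes in every library, with Sirt1 deleted left of Control; horizontal bars give the mean and error bars the SD (n = 5 each). Psmb5, Psmd4 and Psme1 lie higher in all Sirt1 deleted libraries, Psmd11 and Psme4 lie lower in all of them, and Sirt1 deleted 5 is the extreme point in each of these panels.

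Of the 13 associated factors, 6 were higher, 3 were lower and 4 did not pass the test, with a median log2 difference of 0.14, beside 14.5% of all genes called higher and 17.5% lower. Without Control 2 the count called was 5, where 16.2% of all genes were called. With quantile normalization 7 were called higher and 2 lower, beside 17.3% (higher) and 15.4% (lower) of all genes. The activators were called in different directions. Psme1 and Psme2, which together form the interferon-inducible 11S ring that opens the core without ubiquitin, were higher. Psme1 had 8588, 10108, 9168, 8817 and 11948 normalized counts in Sirt1 deleted libraries, against 7429.9, 7503, 7779, 7731 and 8182 in Control libraries (log2 difference 0.32 ± 0.08 SE, limma adjusted p = 0.0131). Psme2 had 6288, 6862, 6153, 6158 and 8135 normalized counts in Sirt1 deleted libraries, against 5506, 5675, 5513, 5684 and 6091 in Control libraries (log2 difference 0.23 ± 0.07 SE, limma adjusted p = 0.0323). Neither pair of groups overlapped. Psme1 was called whichever library was left out, but Psme2 was not called without any 1 of Control 1 to 4 or Sirt1 deleted 2 (limma adjusted p from 0.062 to 0.078). After the length and GC correction described further on, neither was called (Psme1 at 0.07, limma adjusted p = 0.23, and Psme2 at −0.03, limma adjusted p = 0.60). With that correction on the median coding transcript, Psme1 was called (0.13, limma adjusted p = 0.048) and Psme2 was not (0.07). An exon of Emc9 on the opposite strand overlaps Psme1, and since the use of strand in counting is not given in the sources used here, their reads cannot be told apart.

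The nuclear activators Psme4 and Psme3 were called lower as deposited, but neither was after the length and GC correction (Psme4 at −0.017, limma adjusted p = 0.83, and Psme3 at −0.18, limma adjusted p = 0.059), and with quantile normalization Psme3 was not called (−0.13). Psme4, which caps the core in nuclei and is known for histone turnover in the testis and in DNA repair, had 3549, 3131, 3681, 3517 and 2566 normalized counts in Sirt1 deleted libraries, against 4174, 4422, 4414, 3911 and 3723 in Control libraries. The groups did not overlap (log2 difference −0.34 ± 0.09 SE, limma adjusted p = 0.018). Psme3, a nuclear relative of Psme1 and Psme2, had 10021, 9454, 10981, 10359 and 8486 normalized counts in Sirt1 deleted libraries, against 11509, 11175, 11089, 11572 and 10592 in Control libraries. Sirt1 deleted 3 lay inside the Control range (log2 difference −0.19 ± 0.07 SE, limma adjusted p = 0.0445). Psme3 lost its call without any 1 of Control 1 to 4 or Sirt1 deleted 1, 2 or 5 (limma adjusted p from 0.052 to 0.101), and Psme4 was not called without Control 2 (0.052). Psme2b, a near copy of Psme2 inside a longer gene on the same strand (9930111J21Rik1), had 106, 81.9, 83.7, 93.4 and 81.0 normalized counts in Sirt1 deleted libraries, against 139, 117, 138, 115 and 132 in Control libraries. It was lower without overlap (log2 difference −0.52 ± 0.12 SE, limma adjusted p = 0.00965), but its reads are uncertain because it can share them with Psme2 and with that gene.

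All 4 chaperones that assemble the α ring were called higher as deposited, beside 14.5% of all genes, but after the length and GC correction only Psmg2 was (0.15), beside 8.49%, and Psmg4 stood at 0.07. Psmg4 had 797, 979.8, 788, 760.5 and 1155 normalized counts in Sirt1 deleted libraries, against 563, 571, 634, 632 and 770.3 in Control libraries (log2 difference 0.49 ± 0.12 SE, limma adjusted p = 0.0131). Only Control 5 reached into the Sirt1 deleted range. Psmg2 had 1596, 1670.4, 1757, 1533 and 1842 normalized counts in Sirt1 deleted libraries, against 1261, 1323, 1337, 1464 and 1469 in Control libraries, with no overlap (log2 difference 0.29 ± 0.07 SE, limma adjusted p = 0.0104). Psmg3 (0.27) and Psmg1 (0.20) were called as well. Of the 3 chaperones that assemble the base, none was called by limma at the adjusted threshold (1 had an unadjusted p below 0.05): Psmd10 had a log2 difference of 0.14, Psmd9 of 0.13 and Psmd5 of −0.11. Psmf1, an inhibitor of the core in vitro, had 2293, 2424, 2519, 2571 and 2862 normalized counts in Sirt1 deleted libraries, against 2255, 2243, 2267, 2373 and 2421 in Control libraries. It was not called (log2 difference 0.13 ± 0.06 SE, limma adjusted p = 0.12). Psmc3ip, the gene that only shares the symbol, had a log2 difference of 0.18 and was not called.

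The coefficient of variation of these genes was larger among Sirt1 deleted libraries. How far Sirt1 deleted 5 alone set this was not tested, and the same measure was not taken over all genes. The median coefficient of variation of the core genes was 10.4% in Sirt1 deleted and 5.96% in Control libraries, and that of the regulatory genes was 6.22% in Sirt1 deleted and 4.5% in Control libraries. The genes moved together by library: the median deviation of the core genes from their own means (log2) was −0.04, 0.15, 0.12, 0.02 and 0.31 in Sirt1 deleted 1 to 5, against −0.21, −0.18, −0.04, −0.12 and −0.01 in Control 1 to 5. Sirt1 deleted 5 was the highest and Control 1 the lowest, and Sirt1 deleted 1 lay below Control 5. For the regulatory genes the same medians were −0.01, 0.00, 0.06, 0.01 and 0.04 in Sirt1 deleted 1 to 5, against −0.10, −0.10, 0.00, −0.01 and −0.01 in Control 1 to 5.

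**Figure D3:**
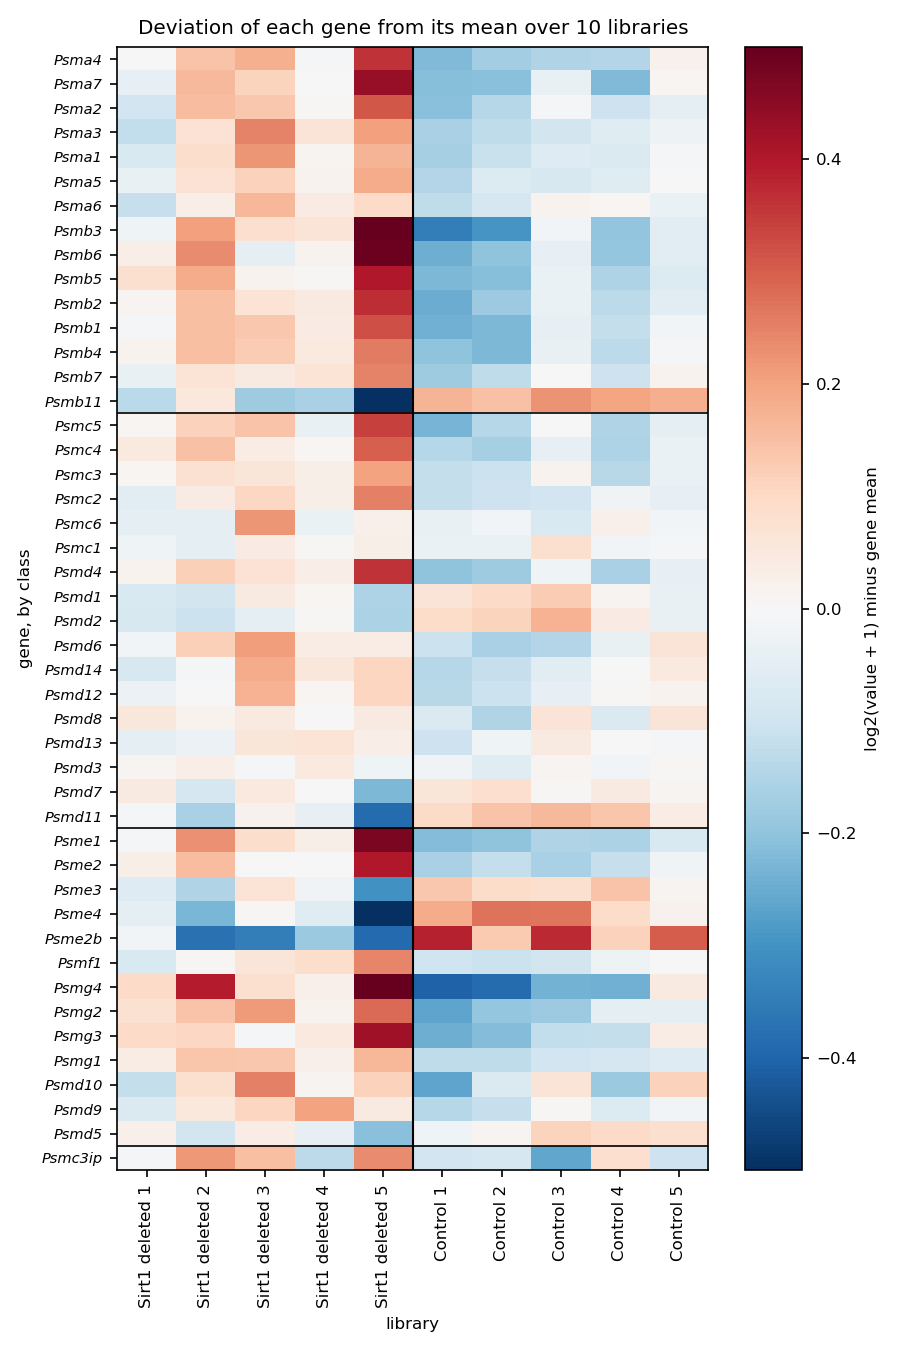
Deviation of log2(normalized count + 1) from the mean of each gene over the 10 libraries, with Sirt1 deleted libraries left of Control libraries and horizontal lines between core, regulatory, associated genes and Psmc3ip. Sirt1 deleted 5 carries the strongest deviations in both directions, and Sirt1 deleted 1 and Control 5 look alike, with core medians of −0.04 and −0.01.

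Transcript length moved with these differences. Over all 12397 tested genes with a length, the log2 difference was lower for genes with a longer longest coding transcript (Spearman rho −0.61 across genes, which are not independent replicates), and over the 46 genes rho was −0.67. The median length was 1165 bases for the core genes, 1819 for the regulatory genes and 3088 for all genes. Genes were split by length into 5 equal classes. In the shortest class (312 to 1784 bases), which holds 27 of the 46, the median log2 difference was 0.23 for the proteasome genes and 0.23 for all genes. In that class 44.7% of all genes were called higher, as were 7 of 11 core genes and 3 of 7 regulatory genes. In the next class (1785 to 2658 bases) the medians were 0.10 for 9 proteasome genes and 0.08 for all genes. In the 3 classes of longer genes, medians of proteasome genes were −0.13 (6 genes), −0.11 (3 genes) and −0.34 (Psme4 alone), and those of all genes were −0.02, −0.12 and −0.28. Psmg4, with the highest difference, has the shortest of these transcripts (555 bases), and Psme4, at −0.34, has the longest (6491 bases).

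**Figure D4:**
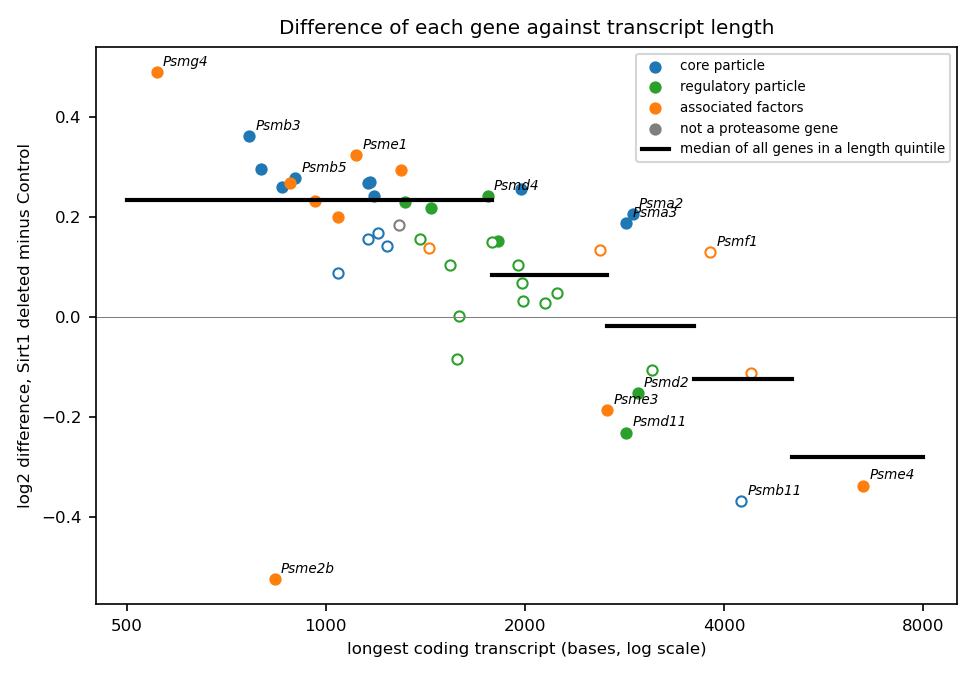
Log2 difference (Sirt1 deleted minus Control) of each of the 46 genes against the length of its longest coding transcript (bases, log axis); filled points passed the test, open ones did not, and black bars give the median of all genes in each of 5 length classes. Most genes lie near the bars, which step down from 0.23 to −0.28, while Psme2b at 837 bases lies at −0.52.

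After a correction for length and GC content fitted in each library, 3 of 15 core genes were called higher (Psma2 at 0.29, Psma3 at 0.26 and Psmb1 at 0.19), where 8.49% of all genes were called higher and 6.14% lower. The core median was then 0.02 and the regulatory median 0.01, and rho over the 46 genes was 0.09. None of the 17 regulatory genes was called by limma in the corrected values, although 6 had an unadjusted p below 0.05. Of the associated factors, Psmf1 (0.23) and Psmg2 (0.15) were called higher and Psme2b (−0.79) lower. Since the length slopes differ between the groups, the correction also takes out any true difference that follows length.

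The corrected calls depend on which transcript is taken as the gene's length. On the median coding transcript in place of the longest, 4 core genes were called higher (Psma2 at 0.36, Psma4 at 0.21, Psmb1 at 0.28 and Psmb4 at 0.13), where 10.6% of all genes were called higher and 8.75% lower, 19.3% in all. The core median was 0.08. Psma3, with 2846 bases in its longest and 859 in its median transcript, was then not called (0.08), nor was Psmf1, with 3809 and 1384 bases (−0.02). In the regulatory particle Psmc2 (0.14) and Psmd12 (0.14) were called higher and Psmd11 (−0.26) lower. Psma2, Psmb1, Psmg2 and Psme2b were called under both corrections.

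The slope of each library on length ordered the libraries much as the core genes did. It was −0.03, −0.12, −0.06, −0.05 and −0.24 log2 units per doubling of length in Sirt1 deleted 1 to 5, against 0.14, 0.16, 0.10, 0.09 and 0.00 in Control 1 to 5, so the groups did not overlap. Across the groups, Sirt1 deleted 1 and Control 5 lie nearest in slope, and their core medians given above are also near each other. Within the groups, Control 3 and Control 4 are nearer in slope (0.10 and 0.09), with core medians of −0.04 and −0.12. So are Sirt1 deleted 3 and Sirt1 deleted 4 (−0.06 and −0.05), with core medians of 0.12 and 0.02. Without the 3 libraries of steepest slope (Sirt1 deleted 5, Control 1 and Control 2), the core median was 0.14 and the regulatory median 0.04, and limma called 0 of 46 genes, beside 3 of all 13567 (0.0221%); at an unadjusted p below 0.05 it found 6 core, 3 regulatory and 7 associated genes. With the slope as a covariate or with the mean of the B cell markers as a covariate, limma called 0 of the 46 genes, but of all 13567 it also called only 0 with the slope and 1 (0.00737%) with the B cell markers, so these counts say nothing particular to proteasome genes. At an unadjusted p below 0.05 the slope covariate left no core, regulatory or associated gene (577 of all genes), and the B cell covariate left 5 core, 1 regulatory and 5 associated genes (2976 of all genes). What sets the length slopes was not tested.

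**Figure D5:**
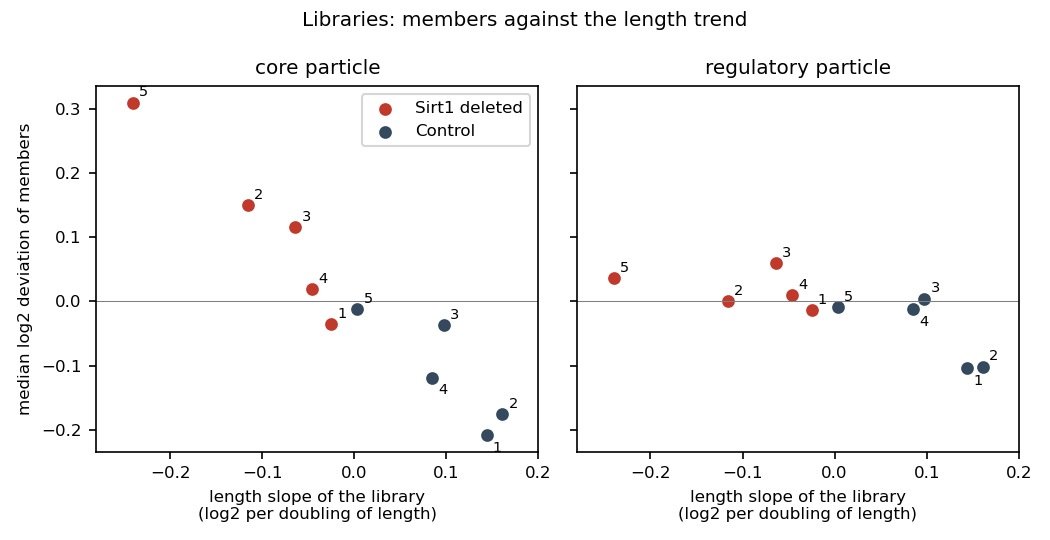
Median deviation of the core genes (left) and the regulatory genes (right) from their own means (log2) against the length slope of each library (log2 per doubling of transcript length); points are libraries, numbered as in the text. Core medians fall from 0.31 in Sirt1 deleted 5 to −0.21 in Control 1 along the slope, while the regulatory medians stay between −0.10 and 0.06.

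The immunoproteasome subunits were compared with the constitutive subunits they replace, as ratios within each library, which scaling of a whole library does not change. Exons of Gm20496 and Tap1 overlap Psmb8 and Psmb9 on the opposite strand. All 3 immunoproteasome genes were called higher in Sirt1 deleted spleens as deposited (log2 differences 0.25 for Psmb8, 0.37 for Psmb9 and 0.32 for Psmb10), beside 14.5% of all genes. After the length and GC correction none of the 3 was called by limma (0.07 for Psmb8, 0.15 for Psmb9 and 0.08 for Psmb10), and on the median transcript Psmb9 was (0.22). With the slope covariate the differences were −0.06 for Psmb8, 0.00 for Psmb9 and 0.03 for Psmb10, none called. The ratio of Psmb5 to Psmb8 ran from 0.398 to 0.419 in Sirt1 deleted and from 0.386 to 0.428 in Control libraries (difference of the log2 ratios 0.02 ± 0.03 SE, exact permutation p = 0.468). The ratio of Psmb6 to Psmb9 ran from 1.58 to 1.72 in Sirt1 deleted and from 1.65 to 1.82 in Control libraries (difference −0.07 ± 0.03 SE, exact permutation p = 0.0556). The ratio of Psmb7 to Psmb10 ran from 1.22 to 1.52 in Sirt1 deleted and from 1.41 to 1.60 in Control libraries (difference −0.17 ± 0.07 SE, exact permutation p = 0.0556). Over the 3 ratios the adjusted exact permutation p-values were 0.468, 0.0833 and 0.0833, so no ratio passed the threshold, and the groups overlapped in all 3.

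Corrected for length and GC content, the ratios of Psmb5 and Psmb6 differed more between the groups, and that of Psmb7 less. On the longest transcript the difference was −0.13 for Psmb5 to Psmb8 (adjusted exact permutation p = 0.0595) and −0.20 for Psmb6 to Psmb9 (adjusted exact permutation p = 0.0238). On the median transcript it was −0.17 for both ratios (adjusted exact permutation p = 0.0238 for each). For Psmb7 to Psmb10 the difference was −0.11 on the longest (adjusted exact permutation p = 0.0714) and −0.08 on the median transcript (adjusted exact permutation p = 0.206), nearer to 0 than the −0.17 of the deposited values.

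Other genes of the pathway were counted from lists, to be read beside the 14.5% of all genes called higher and 17.5% called lower (8.49% and 6.14% after the correction). Among 16 tested proteasome subunits and partners outside the symbol pattern, 3 were higher and 5 lower, with a median log2 difference of −0.14. The most significant rises were Pomp (0.36), the chaperone that completes the core, and Sem1 (0.36), a small lid subunit. The most significant falls were Ube3c (−0.52), a ubiquitin ligase bound to the proteasome, and Ubqln1 (−0.37), a shuttle for ubiquitinated proteins. Pomp, with a longest transcript of 3850 bases, and Sem1 were called after the correction too (0.46 and 0.30). Of the 15 genes of this list with a corrected value, limma called 4 higher and 3 lower, and their corrected median was −0.09.

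Among 14 tested regulators of proteasome genes, 1 was higher and 6 lower, beside 14.5% (higher) and 17.5% (lower) of all genes. Their median log2 difference was −0.20. Nfe2l1, the gene of NRF1, which raises proteasome genes when the proteasome is inhibited, averaged 2617 ± 169 normalized counts in Sirt1 deleted and 3022 ± 105 in Control spleens (SD, n = 5 each; log2 difference −0.21, called lower by limma), chosen here after its value was seen. The most significant falls were Mafg (−0.51), a partner of NRF1, and Ddi2 (−0.88), the protease that activates NRF1. Maff (0.35), another small Maf partner, was the rise. Mafg (−0.37) and Ddi2 (−0.52) were called lower after the correction, and Nfe2l1 (−0.09) was not called. Ngly1, which removes glycans from NRF1, is listed at 0 in Sirt1 deleted 1, 2, 3 and 5 and in Control 4, with 61.1 to 105 normalized counts in the other libraries, so no fold is given.

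Among 6 tested ubiquitin genes and E1 enzymes, 3 were higher and 2 lower, beside 14.5% (higher) and 17.5% (lower) of all genes. The polyubiquitin gene Ubb (0.33) and the ubiquitin-ribosome fusion gene Rps27a (0.24) were higher, and the activating enzymes Uba1 (−0.20) and Uba6 (−0.70) were lower, and after the correction none of the 6 was called by limma. In the COP9 signalosome, a complex related in structure to the lid, 3 of 10 tested genes were higher, beside 14.5% of all genes. The rises were led by Cops9 (0.43) and Gps1 (0.21), and the median log2 difference was 0.10. After the correction 1 of the 10 was called higher, near the 8.49% of all genes.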

How the data were processed

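The deposited table gives signal as normalized counts, with 1 column per library. Per the submitters' processing notes, the authors used kallisto 0.44.0 and DESeq, whose version is not named, with build mm10. The annotation, the gene filter, how transcripts were summed to genes and whether strand was used are not given in the sources used here. The values are not whole: 81.4% to 90.6% of the low values lay within 0.1 of a multiple of a library's step, so whole reads were not recovered and count models were not used. Depth was estimated as the total divided by that step. All 10 columns were used, 0 were left out, and 0 pairs of libraries were identical.

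On the log2(value + 1) scale, limma 3.58.1 (limma-trend, R 4.3.3, no covariate) was fitted to the 13567 genes with 10 or more in at least 5 libraries. Benjamini-Hochberg adjustment ran across all of these genes, with calls (both directions) at 0.05. Ratios and Sirt1 were tested by exact permutation. Fold changes on this scale understate those of low genes. GENCODE M21 (GRCm38) gave positions and lengths for 12397 tested genes (91.4%), including all 46. The correction subtracted, in each library, natural splines (5 degrees of freedom each) of log2 length and GC content. Steps were tested on simulated data.

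The genes, lists, motifs and tests were chosen with earlier results of these data known. Values per library are given for the catalytic subunits, Psmd14, the ubiquitin receptors Psmd2 and Psmd4, the activators, Psmf1 and, in each particle, the 3 largest rises and falls among called genes. Each partner list gives the 2 called genes of smallest p per direction. Alternatives were other pseudocounts, filters and scalings, the length correction, length slope or B cell markers as covariates, omission of 3 libraries, and leaving out each library. The software was Python 3.11.15 with scipy 1.17.1, matplotlib 3.10.9, pandas 2.3.3 and numpy 2.4.6.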

Additional observations from a re-analysis of the deposited data

Results flagged for a closer look

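Of 106 groups of 5 libraries examined for single values far from the rest, 4 stood out, where chance gives about 1 in 20. Psmc1 had 8081 normalized counts in Control 3, against 7473 to 7599 in the other Control libraries. Psmc6 had 4740 normalized counts in Sirt1 deleted 3, against 3941 to 4137 in the other Sirt1 deleted libraries. Psmd4 had 7094 normalized counts in Sirt1 deleted 5, against 5592 to 6007 in the other Sirt1 deleted libraries. Psmg3 had 1761 normalized counts in Sirt1 deleted 5, against 1308 to 1408 in the other Sirt1 deleted libraries. Sirt1 deleted 5 also had the steepest length slope.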

How the results depend on the processing

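No paired analysis was possible because the replicate numbers only follow the order of the samples and tie no Sirt1 deleted mouse to a Control mouse. Pseudocounts of 0.5 and 5, a minimum of 50, TMM and equal totals changed no call of the 18 genes given by library; no filter ended 2 of these calls, and quantile normalization ended 3 and added 1. The counts called were 10 core, 6 regulatory and 9 associated genes as reported. They were 3, 0 and 3 with the length and GC correction, 4, 3 and 4 with the correction on the median transcript (chosen after seeing the data), and 0, 0 and 0 with the slope covariate, with the B cell covariate and without the 3 libraries of steepest slope. The share of all genes called was 32% as reported, and 14.6% and 19.3% with the correction on the longest and the median transcript. It was 0% with the slope covariate, 0.00737% with the B cell covariate and 0.0221% without the steepest libraries. Leaving out 1 library gave 1 to 13 core, 0 to 7 regulatory and 5 to 9 associated genes. It gave Sirt1 differences of −0.50 to −0.35, core medians of 0.19 to 0.27 and regulatory medians of 0.05 to 0.09. The share of all genes called moved too, to 17.2% without Control 1, 16.2% without Control 2, 23.2% without Control 4 and 20% without Sirt1 deleted 2. The core median was 0.02 and the regulatory median 0.01 with the correction, 0.08 and 0.05 with that on the median transcript, −0.027 and −0.0084 with the slope covariate, 0.19 and 0.12 with the B cell covariate, and 0.13 for the regulatory genes with quantile normalization. Sirt1 was at −0.00057, −0.27 and −0.27 and was not called with the slope covariate, the B cell covariate and without the steepest libraries. Since the slopes of the groups do not overlap, the fit with the slope covariate can hardly part group from slope, and its signs are uncertain. The slope covariate reversed 15 of the 18 genes, none of them called: Psmb3 −0.11, Psmb5 −0.023, Psmb6 −0.087, Psmb7 −0.065, Psmc4 −0.0084, Psmc5 −0.036, Psmd4 −0.030, Psmd11 0.047, Psmd14 −0.026, Psme1 −0.026, Psme2 −0.072, Psme3 0.037, Psme4 0.069, Psmf1 −0.066 and Psmg4 −0.076. The correction reversed Psmb5 (−0.056), Psmb6 (−0.050), Psmb7 (−0.028) and Psme2 (−0.033), and on the median transcript Psmb5 (−0.041), Psme4 (0.0019) and Psmf1 (−0.018), none called. The ratio of Psmb5 to Psmb8 reversed to −0.13 and −0.17, and that of Psmb6 to Psmb9 passed the threshold at −0.20 and −0.17, on the longest and the median transcript. The cause of these changes was not tested. Leaving out 1 library gave differences of 0.01 to 0.05 for Psmb5 to Psmb8, −0.09 to −0.06 for Psmb6 to Psmb9 and −0.21 to −0.13 for Psmb7 to Psmb10. Depth limits Psmg4 to a counting error of up to 4.6%.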
